A study of Mus musculus with 2 samples.

Results

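The DNA replication machinery genes are 41 protein-coding genes whose products license origins, unwind DNA and copy it. They were chosen by name and known role from 21853 protein-coding genes of the GENCODE M21 annotation. The choice used no measured value as a criterion, but it was made with earlier results of these data known. By role they were 8 genes of the origin recognition complex and licensing, 6 of the Mcm2 to Mcm7 helicase, 6 of helicase activation, 10 of the polymerases and primase, 6 of the sliding clamp and its loader, 3 of the single-strand binding complex and 2 of Okazaki fragment maturation. The assay was ATAC-seq, which reads out open chromatin through the cuts that a transposase makes in exposed DNA. The cells were common myeloid progenitors, marrow cells that give rise to red cells, platelets, granulocytes and monocytes. The only group was from C57BL/6J males of 5 to 6 weeks, with 2 libraries of 50000 cells labelled replicates 1 and 2. Both libraries carry the same donor label and nothing states that they came from separate animals, so a difference between them may be technical. For replicate 1 the labels list 2 sequencing instruments, for replicate 2 they list none, so instrument and library cannot be told apart. The deposited values were peak lists on mm10 without read counts, so the depth of each library is unknown.

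Before S phase the origin recognition complex, with Cdc6 and Cdt1, loads the Mcm2 to Mcm7 ring onto DNA in an inactive form. Kinases then bring in Cdc45 and the GINS complex to make an active helicase, and primase and polymerase alpha lay down primers. Polymerases delta and epsilon extend these primers with a clamp loaded by replication factor C. Transcription of many of these genes rises as cells enter S phase, and E2F factors, which act through short GC-rich elements in their promoters, are well known regulators of it. Committed progenitors of the marrow divide often and draw on this machinery.

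The labelled cell type was checked against markers of blood progenitors and of other cells. No marker list separated common myeloid progenitors from other blood progenitors, so the check does not reach that distinction. Of 8 blood progenitor genes 7 had an accessible promoter, all but Gata2. None of the 3 B cell, 3 T cell, 3 mature neutrophil and 3 other-tissue markers had one. Over all protein-coding genes the share with an accessible promoter was 60.8%. A gene was called open when an accessible region of the list derived from both replicates reached within 1 kb of any of its annotated starts. A region of that list need not be in either replicate's own list. The region with the strongest signal within that distance was taken as its promoter region. The signal is the value deposited for each peak. Its scale is not stated, and a percentile gives the rank of a gene's promoter signal among all open genes of a list. Signals of different lists are set side by side as deposited, and whether their scales match is unknown. By percentile the 7 open blood progenitor genes mostly ranked low, with a median of 26.8, from Runx1 at 2.54 to Flt3 at 55.5.

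Sequences are shown first, because the E2F and NFY elements in them recur in the values below. Letters are from GRCm38.p6, which is mm10, and run 5′ to 3′ on the gene's strand. Each stretch covers up to 100 bp on each side of the promoter summit, the point of highest accessibility, and reaches at most 50 bp past the start nearest to the summit. The genes are the 6 with the most E2F matches in that window, with ties resolved by signal, and the genes with the strongest (Prim1) and the weakest promoter region (Mcm2, which is also among the 6). Capitals mark E2F words (TTTCCCGC, TTTCGCGC, TTTGCCGC or TTTGGCGC) and the NFY word CCAAT, on either strand.
Rfc3, chr5:151651193-151651356, minus strand: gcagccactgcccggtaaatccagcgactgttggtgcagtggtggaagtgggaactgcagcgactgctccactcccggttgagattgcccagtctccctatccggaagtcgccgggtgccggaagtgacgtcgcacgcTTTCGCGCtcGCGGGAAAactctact
Mcm6, chr1:128359615-128359814, minus strand: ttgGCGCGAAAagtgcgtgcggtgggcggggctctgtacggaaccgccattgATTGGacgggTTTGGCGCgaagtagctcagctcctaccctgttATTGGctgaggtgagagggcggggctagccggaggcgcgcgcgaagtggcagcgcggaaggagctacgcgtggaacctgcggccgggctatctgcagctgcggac
Orc3, chr4:34614864-34615018, minus strand: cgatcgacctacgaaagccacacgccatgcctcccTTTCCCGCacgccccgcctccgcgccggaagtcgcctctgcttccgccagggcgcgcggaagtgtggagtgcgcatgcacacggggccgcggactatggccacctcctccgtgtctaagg
Pola1, chrX:93632129-93632328, minus strand: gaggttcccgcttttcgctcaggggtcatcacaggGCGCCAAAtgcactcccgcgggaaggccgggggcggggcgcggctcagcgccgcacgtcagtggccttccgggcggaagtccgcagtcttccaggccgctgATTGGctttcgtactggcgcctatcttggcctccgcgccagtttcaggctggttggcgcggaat
Gins3, chr8:95633356-95633502, plus strand: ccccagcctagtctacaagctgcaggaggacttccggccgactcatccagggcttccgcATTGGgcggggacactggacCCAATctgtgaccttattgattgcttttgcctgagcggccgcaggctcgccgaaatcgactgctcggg
Prim1, chr10:128015077-128015221, plus strand: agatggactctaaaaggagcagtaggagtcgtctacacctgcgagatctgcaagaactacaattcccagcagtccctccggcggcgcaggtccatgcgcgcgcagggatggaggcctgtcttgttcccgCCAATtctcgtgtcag
Mcm2, chr6:88898731-88898843, minus strand: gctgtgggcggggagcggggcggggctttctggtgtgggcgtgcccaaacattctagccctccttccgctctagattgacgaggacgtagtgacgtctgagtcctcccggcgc
The E2F matches of Mcm2 and Gins3 lay beyond the 50 bp limit and are shown as stretches of 30 bases.
Mcm2 element, chr6:88898678-88898707, minus strand: tggtctagtTTTCGCGCGAAAaccggtggc
Gins3 element, chr8:95633507-95633536, plus strand: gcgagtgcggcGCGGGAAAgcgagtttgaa
The Mcm2 element is counted as 2 matches because a word and its complement overlap there. In Rfc3 the matches are separate and lie 27 and 37 bp downstream of the start. In Mcm6 they lie 85 and 144 bp upstream of it, with NFY words nearby.

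Every replication gene was open. All 41 members had a promoter region, against 60.8% of the 21812 other genes. In the list of replicate 1 alone 41 of 41 were open (56.2% of other genes), in that of replicate 2 again 41 (51.9%), and so 41 were open in both (51.0%). No member was open in 1 replicate alone, as 6.02% of other genes were. In cells in bulk, a promoter open in fewer cells and a promoter less accessible in each cell cannot be told apart. The members' promoter signal had a median of 12.5, with quartiles of 10.7 and 14.5. Other open genes had a median of 10.4, with quartiles of 8.02 and 13.1. Of the members 31 lay above the median of open genes, as 49.9% of other open genes did. Of the 41, 16 lay above the 75th percentile and 2 lay below the 25th, Mcm2 and Mcm7. The median percentile was 69.9.

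**Figure D1:**
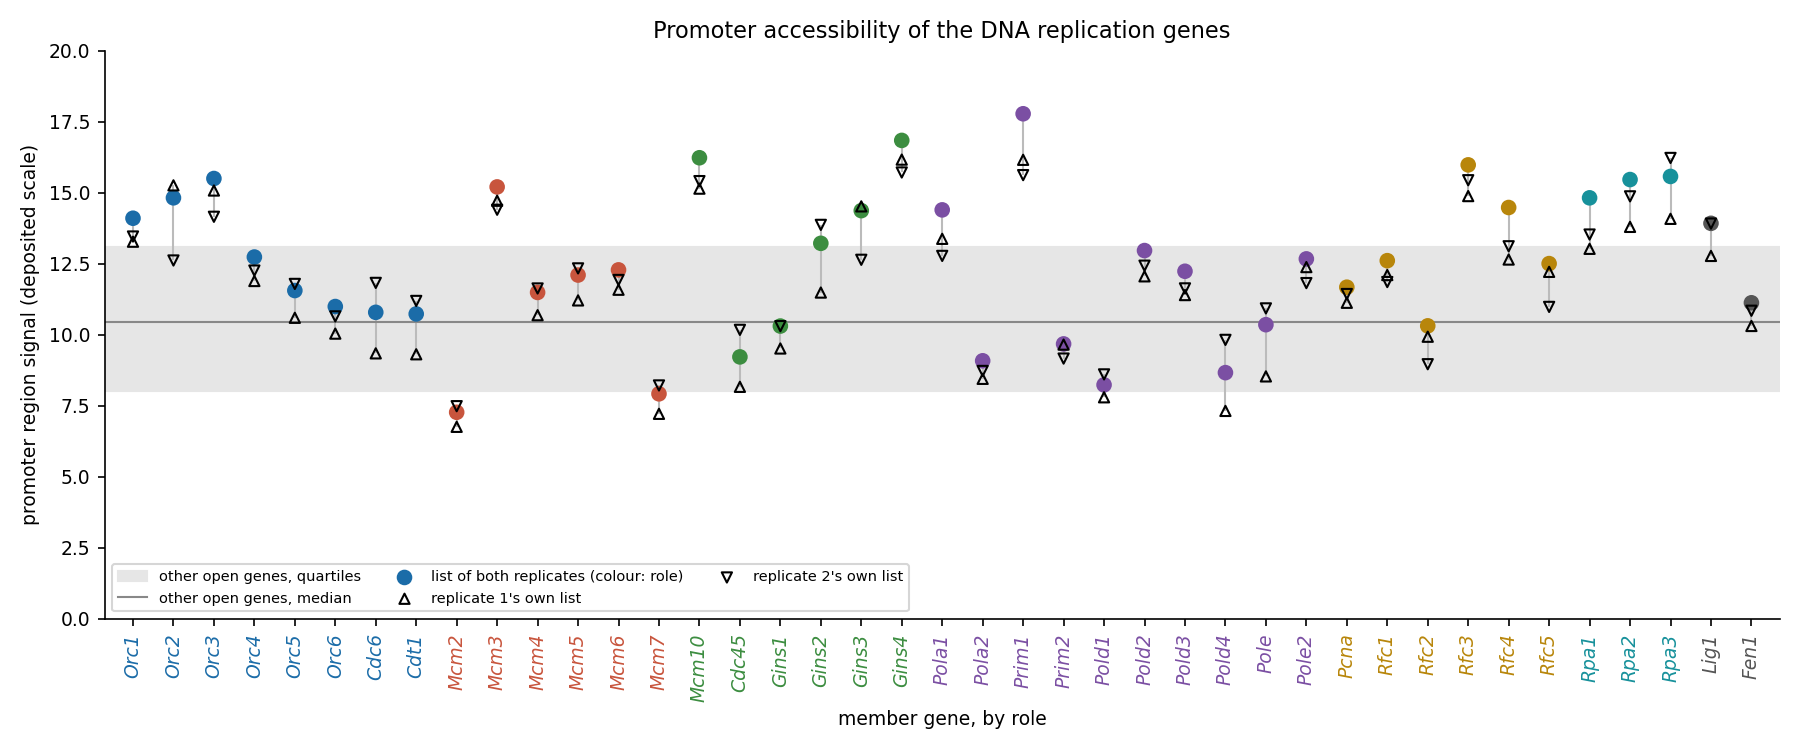
Promoter signal of each of the 41 replication genes, grouped by role along the horizontal axis. Filled circles are the list of both replicates, triangles each replicate's own list, and the grey line and band the median (10.4) and quartiles (8.02 to 13.1) of other open genes. Prim1 has the highest filled circle (17.8) and Mcm2 the lowest (7.27).

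Among the origin recognition and licensing genes all 8 lay above the median of open genes, with a median signal of 12.1. Orc3, an origin recognition subunit, was the strongest of them at 15.5, with 15.1 in replicate 1's own list and 14.2 in replicate 2's. Orc2, another subunit, followed at 14.8. Its rank differed most between the replicates of all members, at percentile 95.1 in replicate 1 and 71.3 in replicate 2. Orc1, the subunit with the ATPase that helps load the helicase, had 14.1, with 13.3 and 13.5 in the replicates. The weakest of the role were Orc6 at 10.99, the loading ATPase Cdc6 at 10.8 and the loading factor Cdt1 at 10.7. Cdc6 had 9.34 in replicate 1 and 11.8 in replicate 2, and Cdt1 9.31 and 11.2. Both thus ranked under the median of open genes in replicate 1's own list (percentiles 42.1 and 41.8) and over it in replicate 2's (62.3 and 55.2).

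The 6 helicase ring genes did not share a level, although their products form a single complex. Mcm3 was at 15.2 (percentile 89.1), with 14.7 and 14.4 in the replicates. Mcm6 at 12.3, Mcm5 at 12.1 and Mcm4 at 11.5 lay close together above the median of open genes, at percentiles from 60.1 to 67.8. Mcm2 at 7.27 (percentile 18.1) and Mcm7 at 7.92 (percentile 23.8) were the weakest of all members. Both were low in each library: Mcm2 had 6.76 in replicate 1 and 7.48 in replicate 2, and Mcm7 had 7.21 and 8.21. The Mcm2 region (chr6:88898373-88898964) was 592 bp wide, with its summit in an exon 36 bp past the start. Mcm7 has 7 annotated starts and a further promoter region, 692 bp wide with a signal of 6.97.

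The helicase activation genes had a median signal of 13.8. Gins4 (16.8) and Mcm10 (16.2), a factor needed to start unwinding, ranked next to Prim1 among all members, and both were above 15 in each replicate's own list. The other GINS subunits were spread out, with Gins3 at 14.4, Gins2 at 13.2 and Gins1 at 10.3. Gins3 had 14.5 in replicate 1 and 12.6 in replicate 2. Cdc45, which joins GINS and the ring in the active helicase, was the weakest of the role at 9.22, with 8.17 and 10.2 in the replicates.

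In the list of both replicates the polymerase and primase genes held the strongest member and several of the weakest. Prim1, the catalytic primase subunit, had a signal of 17.8 (percentile 97.9), with 16.2 in replicate 1 and 15.6 in replicate 2. It was the strongest member in neither replicate's own list. Gins4 was higher in both (16.17 against 16.16 in replicate 1, and 15.7 in replicate 2), and Rpa3 was higher in replicate 2 (16.2). The Prim1 region (chr10:128014961-128015746) was 786 bp wide, with the summit in an exon 5 bp past a start. Prim2, its partner subunit, stood at 9.68 (percentile 41.7). The polymerase alpha pair was likewise split, with the catalytic gene Pola1 at 14.4 and the accessory gene Pola2 at 9.08. For polymerase delta the order ran from Pold2 (13.0) and Pold3 (12.2) to Pold4 (8.67) and the catalytic Pold1 (8.23). Pold1 was low in both libraries, at 7.80 and 8.60. For polymerase epsilon the accessory gene Pole2 had 12.7 and the catalytic gene Pole 10.4, with 8.53 in replicate 1 and 10.9 in replicate 2. In this role 5 of 10 genes lay above the median of open genes.

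Of the clamp and clamp loader genes 5 of 6 lay above that median. Rfc3 was the strongest, at 16.0, with 14.9 and 15.4 in the replicates, and Rfc4 followed at 14.5. Rfc1, the large subunit, had 12.6, Rfc5 12.5, and Rfc2 10.3. The clamp gene Pcna itself was at 11.7, with 11.1 and 11.4 in the replicates. All 3 single-strand binding genes were high and close together: Rpa3 had 15.6, Rpa2 15.5 and Rpa1 14.8. Each of them lay above the 75th percentile in the list of both replicates. The ligase gene Lig1 had 13.9 and the flap endonuclease gene Fen1 11.1, with 10.3 and 10.8 in the replicates. When the upper 50% of regions by signal were kept, 38 members were open and the weakest, Mcm2, Mcm7 and Pold1, had no promoter region. In that shorter list 43.6% of other genes were open.

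The replicates ranked the members alike. Across the 41 genes, which are not independent replicates, Spearman's rho between the replicates' signals was 0.907, beside 0.917 over the 11128 other genes open in both. The percentile of a member differed by a median of 4.82 between replicates (6.50 for other genes) and by 23.8 at most. It differed by more than 20 for 6 members, or 14.6% (9.40% of other genes). Orc2, Rfc5 (percentile 74.8 and 52.6) and Gins3 (92.1 and 71.5) ranked higher in replicate 1. Pold4 (18.2 and 38.9), Pole (31.7 and 52.0) and Cdc6 ranked higher in replicate 2. The deposited signal was higher in replicate 1 for 12 members and in replicate 2 for 29, though the scales of the lists may differ. Other genes were split in a like way, with 32.9% higher in replicate 1. The median percentile of the members was 68.4 in replicate 1's own list and 62.7 in replicate 2's.

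**Figure D2:**
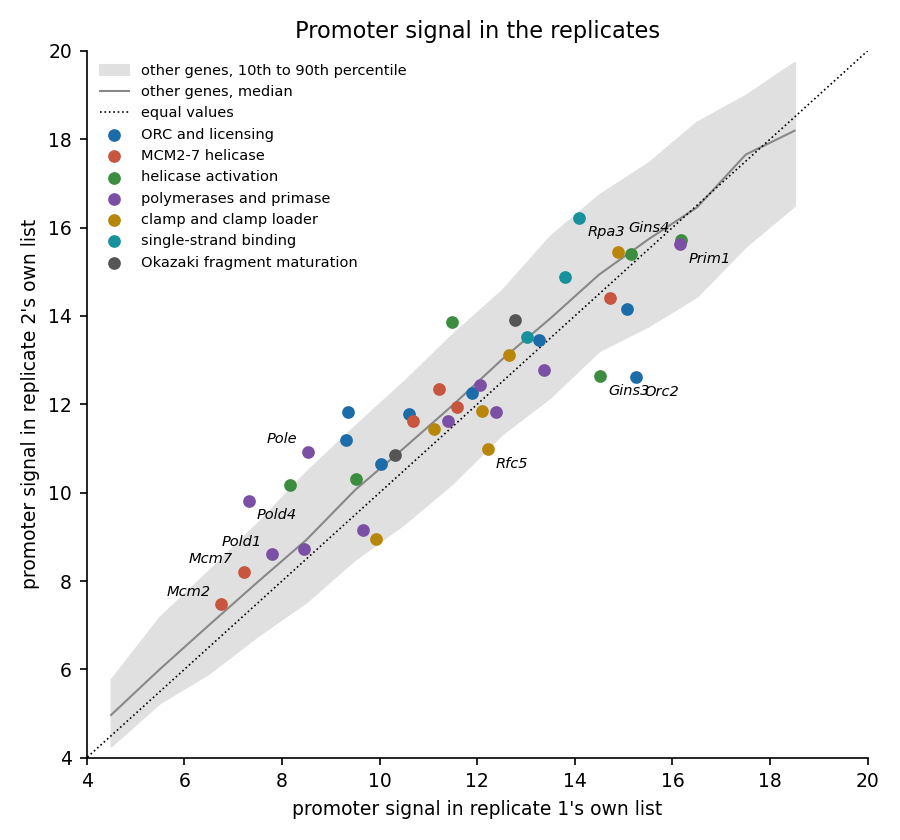
Promoter signal of the 41 members in replicate 1's own list (horizontal axis) against replicate 2's (vertical axis), both on the deposited scale and coloured by role. The grey line and band are the median and the 10th to 90th percentile of other genes, and the dotted line marks equal values. Mcm2 and Mcm7 sit at the low end and Prim1 and Gins4 near the upper end in both replicates.

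The promoter regions had a median width of 896 bp (850 bp in other open genes). Rfc2 (503 bp), Rfc5 (523 bp) and Mcm2 had the narrowest regions, and Cdc45 (1521 bp), Orc4 (1512 bp) and Mcm4 (1456 bp) the widest. The summit lay a median of 72 bp from the nearest start (74 bp in other open genes), and within 100 bp for 32 members (59.6% of other open genes). It was upstream of that start for 31 members (72.3%). Rpa2 had its summit 196 bp upstream, whereas those of Gins1 and Pole2 lay 242 and 270 bp downstream, in introns. More than 1 summit was called in the region of 29 members (68.3%), with 4 in Orc4, Orc5, Mcm4 and Cdc45. Summits of the replicates' own lists were a median of 11 bp apart, as in other genes. They were within 50 bp for 39 members (89.5% of other genes), and the exceptions were Rfc1 at 64 bp and Pole2 at 283 bp. In Pole2 the summit of replicate 1 lay 2 bp past a start and that of replicate 2 lay 269 bp past one, so the position in the list of both replicates follows replicate 2. The 200 bp around the summit had a median GC content of 64.5% (63.5%). The ratio of observed to expected CpG there was 0.895 (0.769 in other open genes).

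**Figure D3:**
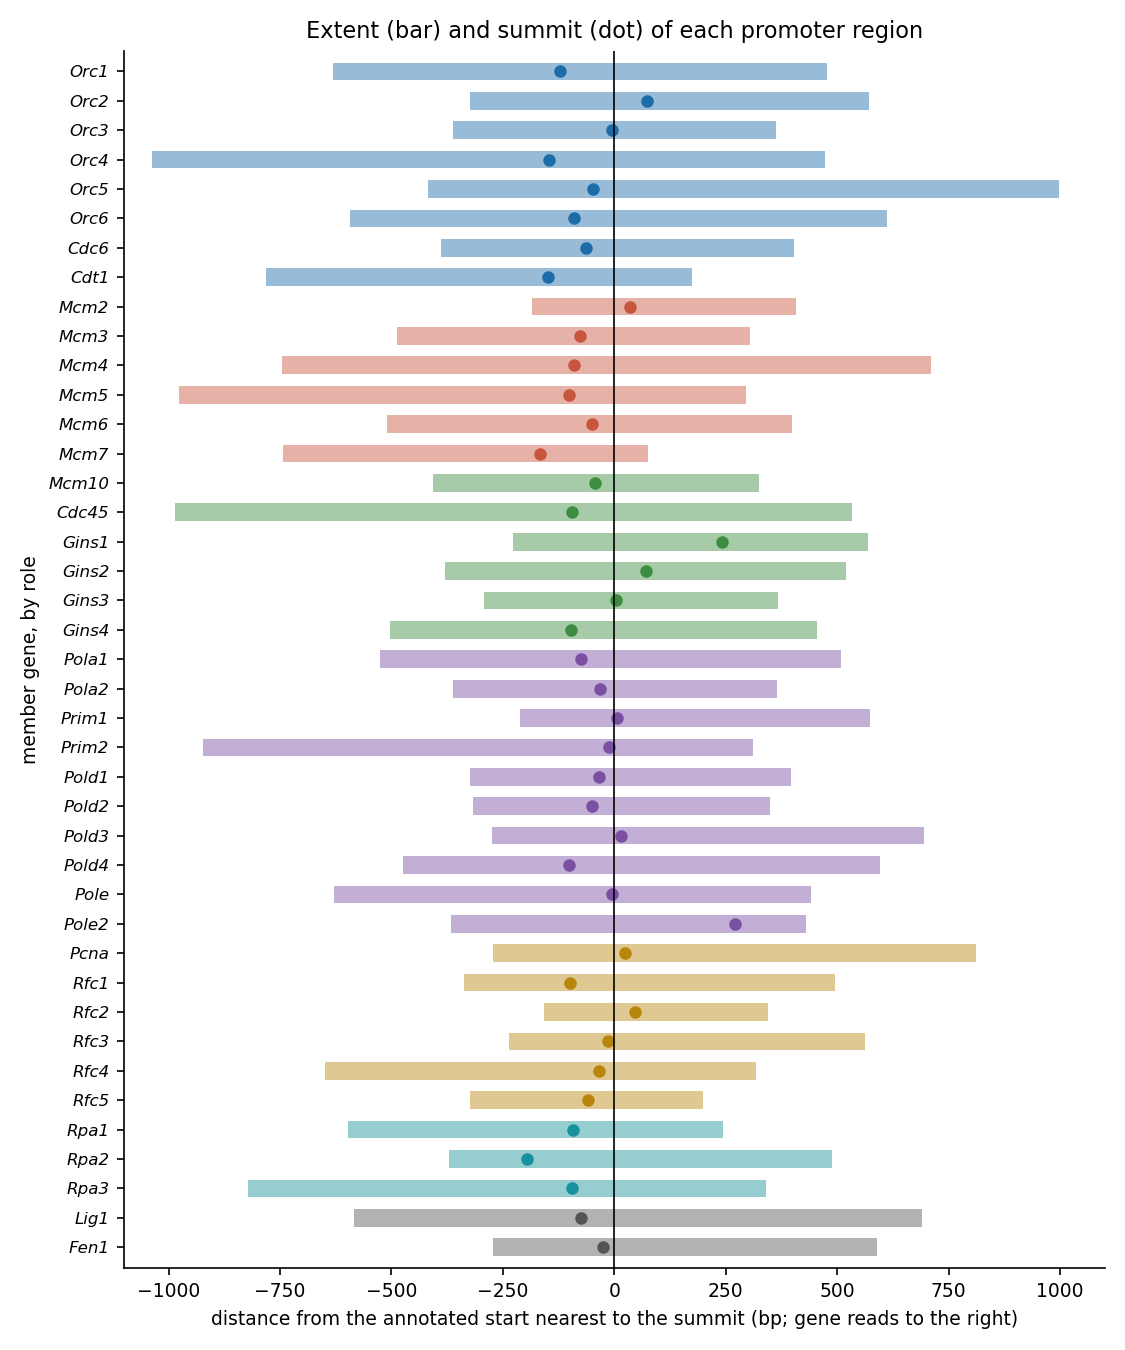
Extent (bars) and summit (dots) of the promoter region of each of the 41 members, in bp from the annotated start nearest to the summit, with the gene reading to the right. Most dots sit just left of the start, and those of Gins1 and Pole2 lie 242 and 270 bp to its right.

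The 1 kb limit admitted 6 further regions, so that 6 members had more than 1 promoter region (23.3% of other open genes). These were Orc6, Mcm7, Pole, Rfc3, Rfc5 and Fen1. The further region of Pole, with a signal of 7.79, lay at another annotated start within the gene (chr5:110330554-110330826). That of Rfc3, 443 bp upstream, was the weakest at 2.00. The farthest summit admitted was that of the further region of Orc6, 925 bp upstream with a signal of 3.91. The nearest summits left out lay 1231 bp upstream of Pole2, with a signal of 6.91, and 1245 bp upstream of Pola2, with a signal of 7.04.

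Of the 41 members 12 shared their promoter region with another gene (19.0% of other open genes), in each case a gene on the opposite strand (17.4%). The signal of such a region belongs to both genes and cannot be divided between them. Orc6 and Vps35 start 11 bp apart, Orc3 and Rars2 13 bp, Fen1 and Tmem258 54 bp, and Lig1 and Zswim9 105 bp. The other pairs were Orc1 with Prpf38a, Orc4 with Mbd5, Mcm4 with Prkdc, Mcm7 with Ap4m1, Cdc45 with Ufd1, Pole with Pxmp2, Rpa1 with Smyd4 and Rpa3 with Umad1. Among them the starts of Mcm4 and Prkdc, which encodes a DNA repair kinase, were farthest apart at 489 bp. By role, 4 of the 8 origin recognition and licensing genes shared their region, and none of the 6 clamp and loader genes did.

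E2F words were present at the promoter summits of 10 members. A match means only that the letters occur within 100 bp of the summit, on either strand, and says nothing of binding. Other open genes had an E2F match in 2.71% of cases, against 24.4% of the members. The 10 genes were Orc3, Mcm2, Mcm4, Mcm6, Mcm7, Gins3, Pola1, Pold3, Pole and Rfc3, and so 4 of the 6 helicase ring genes. Rfc3, Mcm6 and Mcm2 had 2 or more matches, as 0.0151% of other open genes did, which is 2 genes of 13252. Among the 11010 other open genes with a GC content within the members' range of 50.5 to 72.0%, 2.99% had a match. That range takes in most other open genes, so it is not a close match for GC content. Measured from the start nearest to each match, the 13 matches had a median position 32 bp upstream, from 227 bp upstream (Mcm7) to 89 bp downstream (Mcm2). For Orc3, Gins3 and Pold3 that start was not the one nearest to the summit. From the start nearest to the summit, the Gins3 and Pold3 matches lay downstream, so the median depends on the start chosen. The 13 matches lay a median of 53 bp from the summit. Matches were sought only within 100 bp of the summit, so these positions follow in part from the window. No positions for other genes are given here. Members with an E2F match had a median signal of 12.3 and those without one 12.6, and the range of the first (7.27 to 16.0) lay almost wholly within that of the second (8.23 to 17.8), apart from Mcm2 and Mcm7.

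How many members matched depended on the window and the word. Within 50 bp of the summit 4 members had an E2F match (1.06% of other open genes). From 250 bp before to 50 bp after the start 15 had one (4.14%). Without the outermost T, as a core of 7 letters, 14 members and 12.8% of other open genes had a match.

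NFY is a factor that binds CCAAT boxes, and its word was found in 24 members (33.3% of other open genes, and 34.9% of those within the members' GC range). Of these 24, 13 had 2 or more copies (31.7% of the members, and 12.3% of other open genes), among them Cdc45 with 4 and Mcm3, Mcm5 and Mcm10 with 3 each. NFY words lay a median of 52 bp upstream of the start nearest to each word, a position that likewise follows in part from the window. Mcm4, Mcm6, Mcm7, Gins3, Pola1 and Pole, 6 members, had both E2F and NFY matches (1.10%). By role, 5 of the 6 helicase ring genes, 5 of the 6 helicase activation genes and all 3 single-strand binding genes had an NFY word. Of the clamp and loader genes 2 of 6 had one, Pcna and Rfc1, and neither Lig1 nor Fen1 did.

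The word CCGGAAG, bound by ETS factors, was found in 17 members (16.1% of other open genes), with 3 copies in Rpa3 and 2 each in Gins4 and Rfc3. These 3 members thus had 2 or more copies, as 2.80% of other open genes did. The SP word GGGCGG was common, in 29 members (56.8%). Its last letters GCGG can be the first letters of an E2F match on the other strand, so these 2 words are not independent. The remaining words were rarer. NRF1 (GCATGCGC) was found in 4 members (3.74%), the E-box CACGTG in 4 (8.06%), YY1 (AAGATGGC) in 2 (3.71%) and the cyclic AMP element TGACGTCA, labelled CRE, in 2 (3.06%). ZBTB33 (TCTCGCGA) was found in Pole alone, 1 member (1.96%), and the cell cycle homology region TTTGAA, labelled CHR, in Gins3 alone, again 1 member (5.64%).

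**Figure D4:**
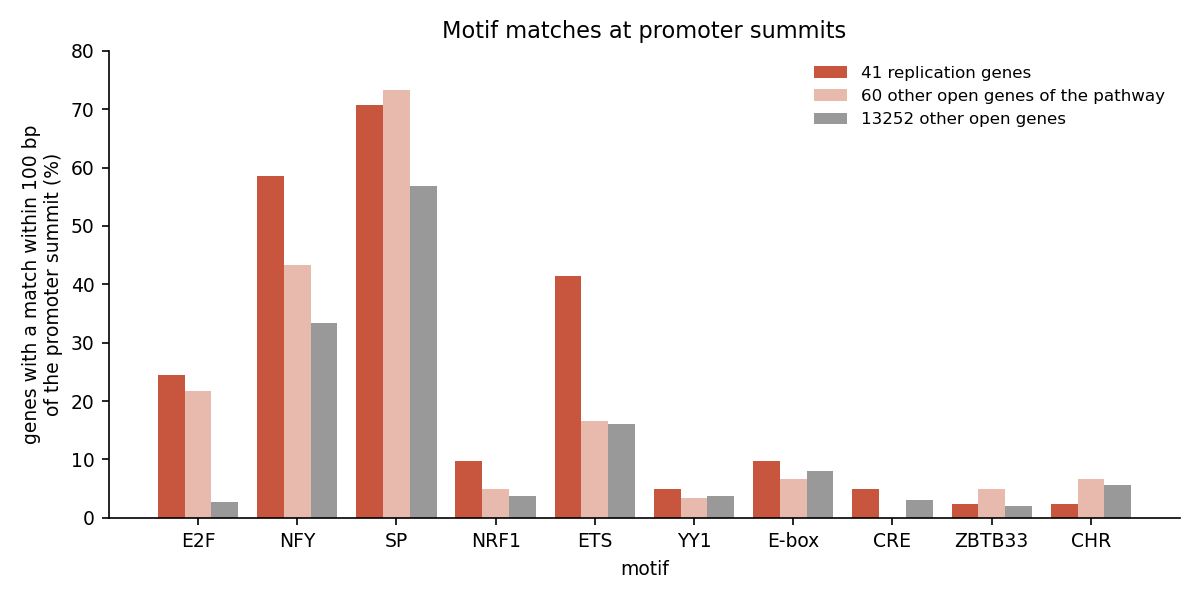
Percentage of genes with a motif word within 100 bp of the promoter summit, for the 41 members, 60 other open genes of the pathway and all 13252 other open genes, which include those 60. For E2F the bars stand at 24.4, 21.7 and 2.71%, and for ETS at 41.5, 16.7 and 16.1%.

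Another 61 genes of the pathway were examined for context, from licensing control to nucleotide supply, chromatin assembly and the E2F family. Of these 60 were open, all but E2f2, which encodes an activating E2F. In both replicates' own lists 52 were open (51.0% of all genes other than the members). In replicate 1's alone 7 were open, among them Rb1. Of the 21812 genes other than the members, 1128 were open in replicate 1's list alone and 184 in replicate 2's alone. The pathway genes had a median signal of 10.97 and a median percentile of 55.0, below the members' 12.5 and 69.9. Ticrr, a factor needed for origin firing, had the highest signal (18.8), and the DNA methyltransferase gene Dnmt1 and the ribonucleotide reductase gene Rrm1 stood at 16.4 and 15.7. Rrm2, the partner of Rrm1, was at 6.57 (percentile 12.1). The thymidine kinase gene Tk1 was the weakest at 4.10 (percentile 0.677), with no promoter region in either replicate's own list. The 12 open genes of E2F, its partners and the retinoblastoma family had a median signal of 9.53, from Rb1 at 5.73 to E2f7 at 14.7. E2F words were found in 13 of the 60 open pathway genes, or 21.7%, and NFY words in 26. ETS words were found in 10, or 16.7%, close to the 16.1% of other open genes.

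A distal region was given to the protein-coding gene with the nearest start, up to 100 kb away, which does not show that it acts on that gene. The members received 58 distal regions, 1.41 per gene, against 2.06 per gene for other genes. At least 1 was given to 24 members (60.3% of other genes). The stretch of genome nearest to a gene's starts, its territory, was counted up to 100 kb from a start. It left out 1 kb on each side of every start. Members' territories had a median length of 29.9 kb, against 43.7 kb for other genes. Per 100 kb of territory members had 3.17 distal regions and other genes 2.92. Prim2 had 6, Gins2, Rfc3 and Rpa1 had 5 each, and Pold3, Rfc1 and Rfc2 had 4 each. The 17 members with none included Pcna, whose territory was 5.7 kb, and Pola1, whose territory was 109.4 kb.

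The distal regions of the members had a median signal of 7.28 and a median width of 410.5 bp (8.05 and 453 bp for other genes). They lay a median of 10.5 kb from the start (17.7 kb). Of the 58, 26 lay in the body of the gene they were given to, 12 in the body of another gene only, and 20 between genes. Both replicates' own lists held 17 of them, or 29.3%, against 44.4% for other genes. In neither list were 24 of them, or 41.4%, against 31.7% for other genes.

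The strongest distal region lay 35.8 kb upstream of Rfc3, between genes (chr5:151686450-151687193). Its signal was 18.3, with 16.5 in replicate 1 and 16.3 in replicate 2, above that of the Rfc3 promoter itself. Next came a region in an intron of Mcm5, 10.3 kb past its start (chr8:75119318-75120123), with 15.9, and with 14.8 and 14.6 in the replicates. Its signal likewise exceeded the 12.1 of the Mcm5 promoter. Prim2, whose promoter was at 9.68, had distal regions of 13.7 lying 14.8 kb upstream and of 13.1 in an intron 91.0 kb downstream, both found in each replicate. A region of 12.4 lay 9.23 kb upstream of Mcm6, in an intron of Dars, and was found in replicate 2 (10.03) but not in the own list of replicate 1. All 5 distal regions of Gins2 lay in introns of another gene, Gm20388, and those downstream of the Gins2 start also lay in Gse1.

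**Figure D5:**
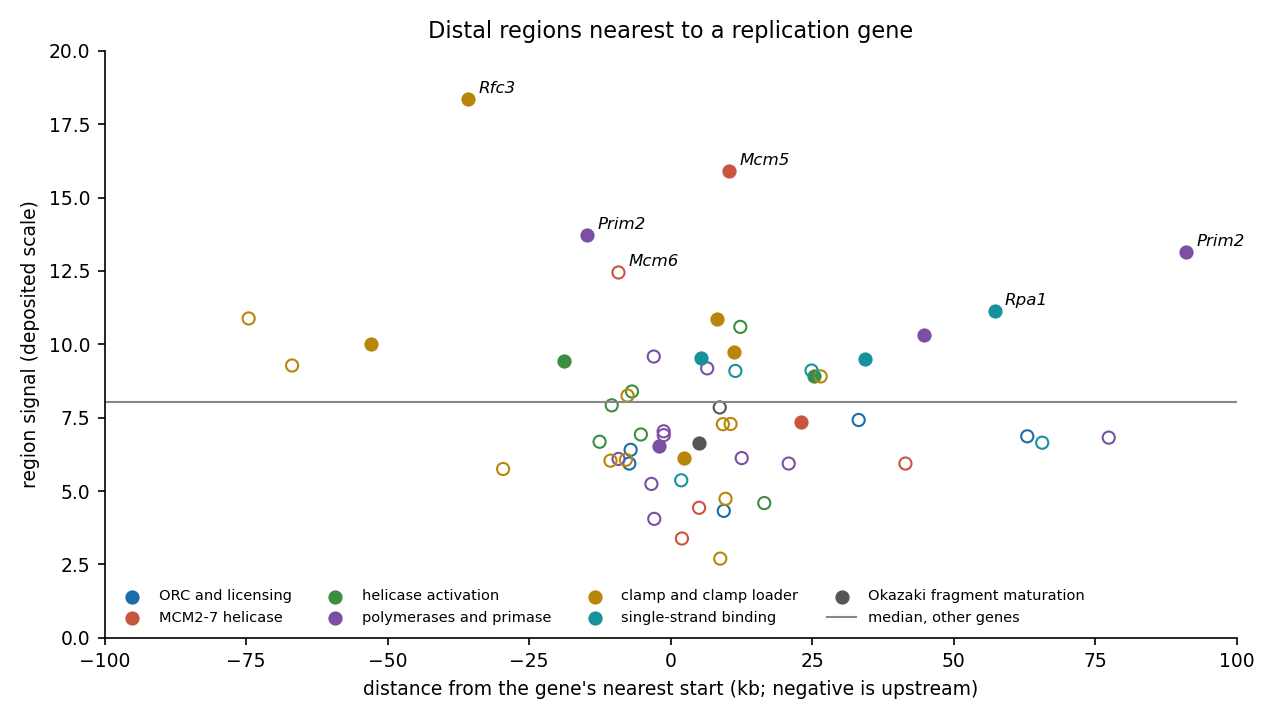
The 58 distal regions given to replication genes, by distance from the gene's nearest start in kb (horizontal axis, negative upstream) and by signal on the deposited scale (vertical axis), coloured by role. Filled circles were found in both replicates' own lists (17 regions) and open circles were not. The grey line is the median of other genes' distal regions (8.05). The 6 strongest are named, led by Rfc3 at 18.3.

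Words of blood cell factors were also sought at the distal summits, within 100 bp. No distal region of a member had an E2F word, and 0.644% of those of other genes did. The word GAGGAAGT of PU.1, a myeloid regulator, was found in 9 of 58 (9.25% for other genes), the RUNX word TGTGGT in 13 (29.4%), the GATA word AGATAA in 9 (13.9%) and a CTCF motif in 5 (8.57%). PU.1 words occurred among others in the Prim2 region 91.0 kb downstream and, with 2 copies, in the Rpa2 region 5.37 kb downstream. A RUNX word occurred in the strong Mcm5 region and a GATA word in the Mcm6 region within Dars.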

How the data were processed

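ATAC-seq of 2 libraries of 1 group was used as 7 of the deposited peak lists. Per the labels, these are thresholded by the irreproducible discovery rate or built from pseudoreplicates. The authors gave each peak a signal value on a scale that is not stated and a summit offset. Aligner: not given in the sources used here, and the same holds for the peak caller. Depth is unknown, so no interval that needs it is given and no count test was possible.

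From the conservative list, 102186 peaks were merged into 67395 regions that kept the strongest summit. Regions were set against 54361 starts of GENCODE M21. The sequence was GRCm38.p6, and 0 peaks passed a chromosome end. Replicates were compared by their own lists of 47535 and 37620 regions. Overlap meant at least 1 bp. Motif words were sought on both strands, the CTCF motif by its consensus. No test was made over the members: their counts stand beside those of other genes. Members and lists were chosen with earlier results of these data known. Any member or listed pathway gene could be named, others only as promoter partners or hosts of distal regions. Of 82 listed symbols 81 matched. The steps recovered known answers on simulated data. Python 3.11.15, NumPy 2.4.6, pandas 2.3.3, SciPy 1.17.1, pysam 0.24.0 and matplotlib 3.10.9 were used.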

Additional observations from a re-analysis of the deposited data

How the results depend on the processing

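The other peak lists, the upper 50% of regions, promoter windows of 500 and 2500 bp, assignment within 50 kb, unmerged peaks, a single start per gene and other E2F windows and words were tried. All 41 members were open in every list and window tried, apart from the upper 50% of regions, where 38 were, and the lists of equal length below. With either replicate's own list alone, the median percentile of promoter signal ranged from 62.7 to 68.4, the median width from 814 to 853 bp, the median summit distance from 60 to 63 bp and the distal regions from 24 to 29. Each of those lists holds fewer regions, and the effects of library and of length cannot be told apart. The pseudoreplicated list gave 111 distal regions and the upper 50% of regions 23. An E2F match within 50 bp of the summit was found in 4 members. Within 100 bp, 13 members had one at the summits of replicate 1's own list and 11 at those of replicate 2's. In the list of both replicates 10 had one. The other alternatives left each count and median within the spread between replicates or within 1.5 times, except that with equal numbers of the strongest regions from each replicate 1 member was open in 1 replicate alone. Unknown depth limits what absence from a list shows. No paired analysis was possible because there was 1 group.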
